A study of Mus musculus with 6 samples.

Results

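The 4 Hox clusters of the mouse were described by the methylation of their CpGs in LSK cells, a sorted bone marrow fraction (no lineage markers, Sca-1 and c-Kit present) rich in blood stem cells and early progenitors. The members were chosen by position on the mouse build mm9, not by any measured value, as all 1 kb windows that begin in 4 intervals: chr6:52095000-52225000 for Hoxa, chr11:96045000-96240000 for Hoxb, chr15:102740000-102880000 for Hoxc and chr2:74490000-74615000 for Hoxd. These held 590 windows with a listed CpG, of 2491243 in the whole table, and 13445 of the 20451903 CpGs. Of the 590 windows, 404 had enough reads to be tested (93 in Hoxa, 128 in Hoxb, 89 in Hoxc and 94 in Hoxd). The genes followed are 38 Hox genes of these clusters.

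Whole-genome bisulfite sequencing was used to compare 3 wild-type (WT) samples with 3 samples from Tet2/3 DKO mice, which lack the dioxygenases Tet2 and Tet3 by their label. Each sample is labelled as a biological replicate, with cells sorted from femurs and tibiae. The sources used here do not give the alleles, the Cre driver if one was used, the age of the mice or any pooling of animals. The table holds no expression, so the sorted cell type could not be checked against its markers.

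Hox genes encode homeodomain transcription factors that give cells positional identity along the body axis, and in each cluster they lie in the order of paralog groups, from group 13 at the 5′ end to the low-numbered groups at the 3′ end. In blood stem and progenitor cells, Hoxa and Hoxb genes are known to be expressed, with Hoxa9, Hoxa7 and Hoxa10 the best known for roles in self-renewal and in myeloid leukaemia, whereas Hoxc and Hoxd genes are mostly silent. Hox clusters hold dense CpGs that stay largely free of methylation, both where the genes are active and where Polycomb proteins keep them silent. Tet enzymes oxidise 5-methylcytosine to 5-hydroxymethylcytosine and further products, and bisulfite sequencing reads 5-methylcytosine and 5-hydroxymethylcytosine alike as methylated. A level here is the share of reads called methylated, and in a sorted population a change in some cells cannot be told apart from a smaller change in all cells.

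The upstream sequences of 4 Hoxa genes are shown as those of starts at the ends of the measured range. Over the 1 kb around each start that could be placed on mm9, Hoxa5 had the highest level, Hoxa5 and Hoxa7 had the 2 largest gains, and Hoxa3 had the lowest level. Hoxa9 was added after its values were seen, because its start lies in a window called higher in DKO. Each run is the 250 bases before the start from RefSeq (GRCm38.p6), 5′ to 3′ on the minus strand of chromosome 6, with every CG in capitals. The mm9 positions were found from the spacing of the CpGs: chr6:52154587-52154836 for Hoxa5, chr6:52168573-52168822 for Hoxa7, chr6:52163067-52163316 for Hoxa3 and chr6:52177370-52177619 for Hoxa9.
Hoxa5: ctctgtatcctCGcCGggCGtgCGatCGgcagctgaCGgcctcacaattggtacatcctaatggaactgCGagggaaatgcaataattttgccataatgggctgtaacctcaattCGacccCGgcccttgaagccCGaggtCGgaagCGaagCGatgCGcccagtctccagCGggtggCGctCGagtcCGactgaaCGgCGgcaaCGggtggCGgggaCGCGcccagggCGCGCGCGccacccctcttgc
Hoxa7: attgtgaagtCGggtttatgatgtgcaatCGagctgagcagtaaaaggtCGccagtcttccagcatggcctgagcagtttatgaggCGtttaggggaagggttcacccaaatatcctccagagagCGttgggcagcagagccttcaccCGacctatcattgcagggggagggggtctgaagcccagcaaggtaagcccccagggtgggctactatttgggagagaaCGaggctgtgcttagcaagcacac
Hoxa3: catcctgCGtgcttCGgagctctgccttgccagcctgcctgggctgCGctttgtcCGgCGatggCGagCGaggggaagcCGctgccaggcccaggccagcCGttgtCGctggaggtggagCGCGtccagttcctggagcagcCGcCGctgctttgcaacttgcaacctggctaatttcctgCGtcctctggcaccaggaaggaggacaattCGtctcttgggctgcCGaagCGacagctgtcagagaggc
Hoxa9: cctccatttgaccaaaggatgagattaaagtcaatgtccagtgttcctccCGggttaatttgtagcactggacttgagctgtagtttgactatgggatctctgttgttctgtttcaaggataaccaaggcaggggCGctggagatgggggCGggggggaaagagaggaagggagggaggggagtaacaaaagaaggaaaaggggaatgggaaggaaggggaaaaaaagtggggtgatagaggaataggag
The Hoxa5 stretch has 28 CpGs, the Hoxa3 stretch 18, the Hoxa7 stretch 7 and the Hoxa9 stretch 3. The median over 32851 RefSeq promoter sequences was 6, and 7.61% of them had at least as many as Hoxa5. All of these CpGs were listed in the table.

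Over the CpGs printed for Hoxa5, 59.7, 60.9 and 50.5% of reads were methylated in WT replicates 1, 2 and 3, and 68.2, 86.5 and 82.2% in DKO replicates 1, 2 and 3, on 72 to 104 reads per sample. Over those printed for Hoxa7 the WT levels were 0, 17.6 and 5.88% and the DKO levels 37.5, 23.8 and 34.3%, on 17 to 35 reads. At both genes all DKO samples were higher than all WT samples. The CpGs printed for Hoxa3 were at 0% in all WT samples and in DKO replicates 1 and 3, and at 13.1% of 99 reads in DKO replicate 2. Those printed for Hoxa9 were at 0% in all 6 samples, on only 2 to 19 reads, so the gain in the window of that start came from CpGs outside the printed bases.

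Sequencing depth was low, with 70815948 to 111763872 read calls per sample and a mean of 3.46 to 5.46 reads per CpG, higher in each DKO than in each WT sample. The share of methylated calls on mitochondrial DNA, used here as a measure of failed conversion, averaged 1.28% ± 0.0797 (SD, n = 3) for WT and 1.71% ± 0.170 for DKO. This difference of 0.437 points bears on every level near 0 below. All tests of single values over samples were two-sided exact permutation tests, in which 3 samples against 3 cannot give a p below 0.1. A window was called when the quasi-binomial test, adjusted by Benjamini-Hochberg over 774732 autosomal windows, gave an adjusted p under 0.05 and the group means differed by at least 10 percentage points.

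In both groups the clusters were far less methylated than the rest of the genome. Of the tested windows, 37.4% had a mean level below 10%, against 2.75% of the autosomal windows outside the clusters, and 18.3% were at 80% or more, against 82.4%. Hoxc had the lowest level and only 1 window at 80% or more. Hoxb had the highest level, with 39 such windows of 128. The 3′ side of Hoxa was its methylated side, with 23 of 40 windows at 80% or more, and the 5′ side had 2 of 53.

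**Figure D1:**
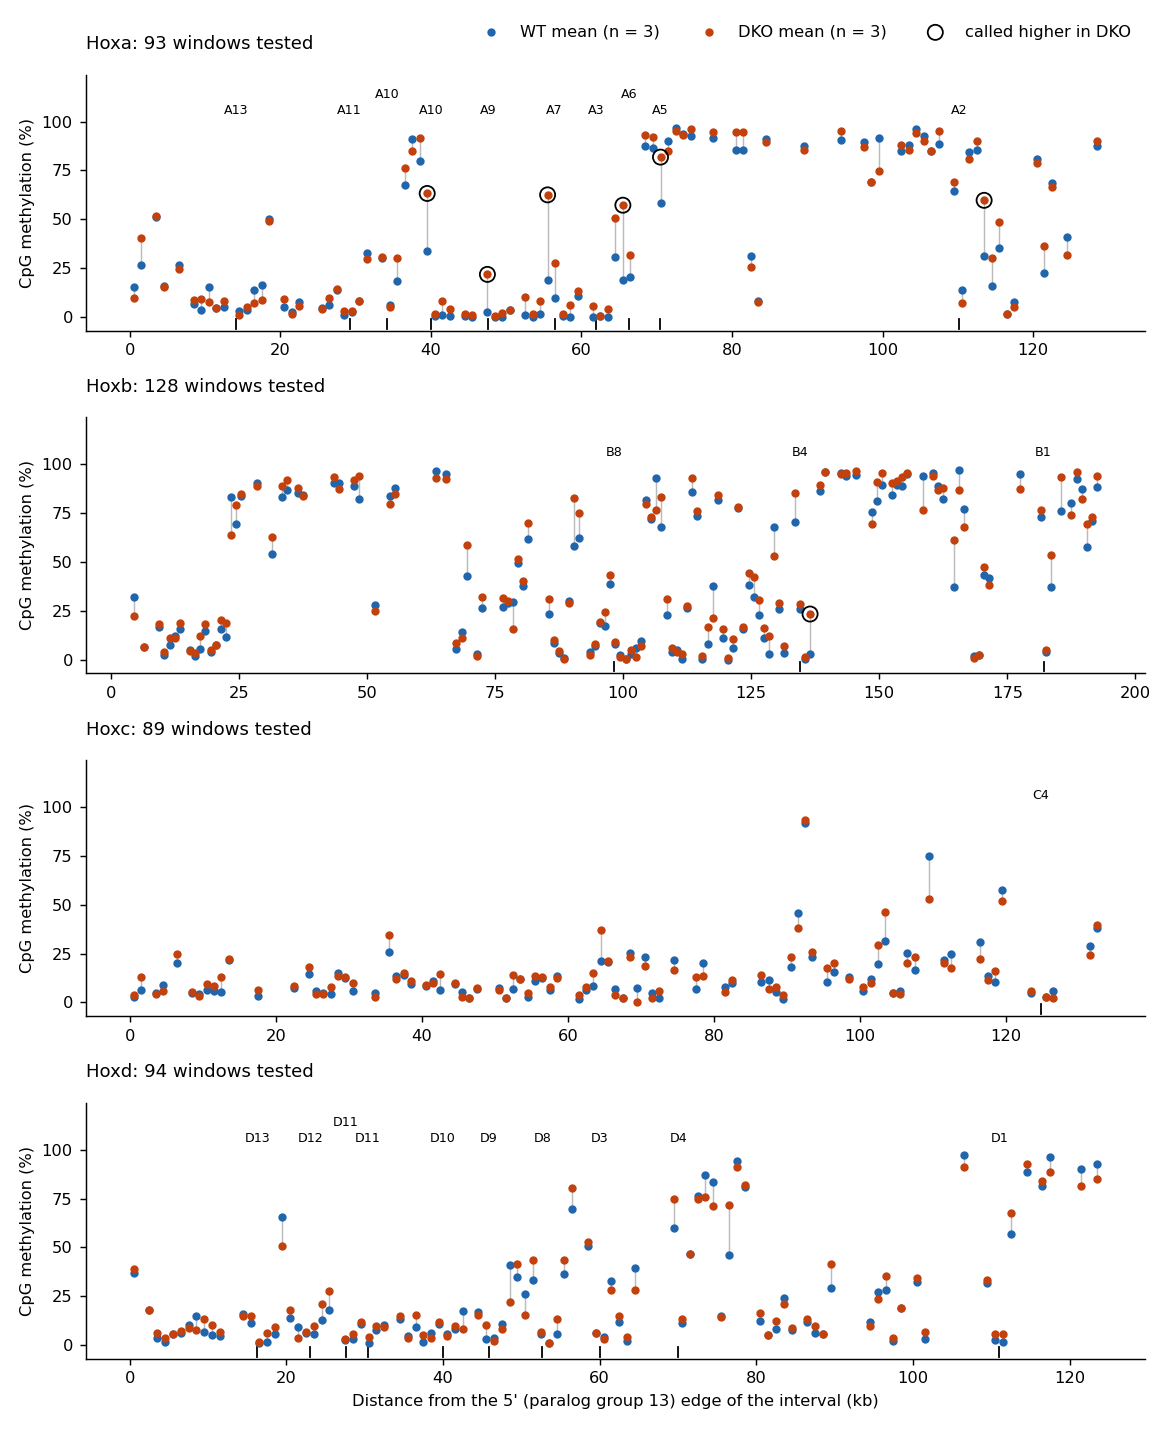
Mean methylation of each tested 1 kb window in WT (blue) and DKO (orange) samples, against the distance from the edge of the interval next to the paralog group 13 gene; ticks mark placed starts, grey lines join the 2 means of a window and rings mark the 7 called windows. The 6 rings in Hoxa lie from A10 to beyond A2, and Hoxc and Hoxd have none.

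The Hoxa cluster as a whole was higher in every DKO sample. Its mean window level was 36.8, 35.4 and 37.3% in the WT samples and 40.2, 40.8 and 39.6% in the DKO samples, a difference of 3.67 points ± 0.649 (SE, n = 3 per group). Hoxb had 45.7, 44.4 and 46.3% in WT and 47.9, 47.4 and 47.4% in DKO, a difference of 2.11 points ± 0.596. Both differences reached p = 0.1, the smallest an exact permutation test can give here, and 0.17 after adjustment over the 17 tests of clusters, sides and contrasts. The Hoxa groups stayed apart under the other minimums, window size and weights tried, whereas the Hoxb groups overlapped with a minimum of 40 reads (1.63 points, exact permutation p = 0.3), with 500 bp windows (1.5 points, p = 0.2) and with reads summed over the cluster (1.12 points, p = 0.3).

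The clusters known as silent in blood differed less in mean window level. Hoxd was at 24.9, 24.3 and 24.2% in WT and at 25.5, 25.1 and 25.6% in DKO, a difference of 0.901 points ± 0.262 (exact permutation p = 0.1, adjusted 0.17). Hoxc was at 13.5, 13.5 and 14.7% in WT and at 14.7, 14 and 14.8% in DKO, and the groups overlapped (0.613 points ± 0.454, exact permutation p = 0.2). Levels were also corrected for each sample's mitochondrial share, which was subtracted before division by the remaining share. The Hoxd groups then overlapped too, with 0.576 points (exact permutation p = 0.2), and Hoxc differed by 0.235 points (p = 0.9). Hoxa and Hoxb differed by 3.45 and 1.9 points after this correction, without overlap (exact permutation p = 0.1 for each).

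The contrast of active with silent clusters was taken within each sample, as the mean level over the 221 windows of Hoxa and Hoxb minus that over the 183 windows of Hoxc and Hoxd. It was 22.6, 21.6 and 22.9 points in WT and 24.4, 24.8 and 23.8 points in DKO. All DKO samples were higher than all WT samples, by 2.01 points ± 0.513 on average (SE, exact permutation p = 0.1, adjusted 0.17). Hoxa and Hoxb together were higher by 2.77 points, and Hoxc and Hoxd by 0.761 points. These pairs also differed in their mix of windows. Windows below 10% made up 30.3% of those in Hoxa and Hoxb and 45.9% of those in Hoxc and Hoxd. Whether this mix accounts for the contrast was not tested. The groups overlapped in this contrast with reads summed over the clusters (0.832 points), with equal CpG weights (1.19 points) and with 500 bp windows (1.85 points), each with an exact permutation p = 0.2. After the mitochondrial correction the contrast differed by 2.14 points, without overlap (exact permutation p = 0.1).

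**Figure D2:**
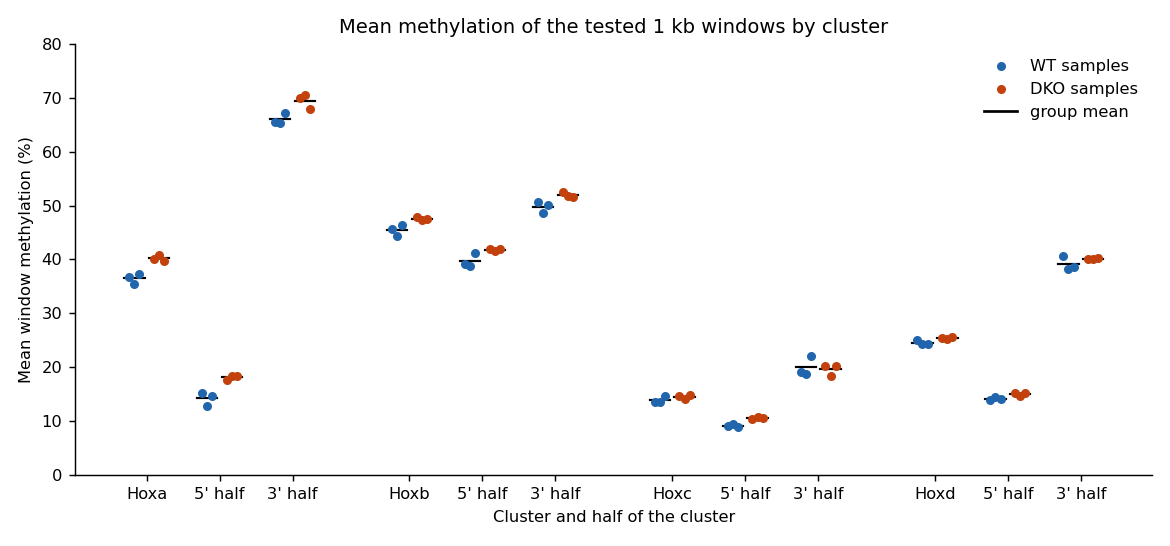
Mean methylation of the tested windows of each cluster, and of its 5′ and 3′ sides, with 1 point per sample and a line at each group mean. The DKO points lie above the WT points in Hoxa, Hoxb and their sides, and overlap them in Hoxc as a whole, its 3′ side and the 3′ side of Hoxd.

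The 5′ and 3′ sides of a cluster, divided at the middle of its interval, did not differ detectably in their change at the main settings. In Hoxa the 5′ side, which holds Hoxa7 to Hoxa13 and the placed start of Hoxa3, went from 14.2 to 18.1% and the 3′ side from 66.0 to 69.5%, and the difference of these changes was 0.434 points ± 1.12 (SE, exact permutation p = 0.5). In Hoxb the changes were 2.05 and 2.16 points. In Hoxc the 5′ side was at 9.14, 9.47 and 8.84% in WT and at 10.5, 10.7 and 10.6% in DKO, with no overlap, while the 3′ side changed by -0.449 points with overlap. The test of the 2 Hoxc sides against each other gave 1.89 points ± 1.44 (exact permutation p = 0.4). In Hoxd the sides changed by 0.888 and 0.920 points.

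Windows were also grouped by mean level over all 6 samples, as low (below 10%), border (10% or more beside a low window) or other. DKO values thus enter the classes, and a window that gains in DKO can leave the low class. Over the 4 clusters the 151 low windows went from 4.41% ± 0.308 to 5.61% ± 0.422, the 90 border windows from 24.9% ± 1.65 to 27.8% ± 1.04, and the 163 other windows from 60.4% ± 0.782 to 62.3% ± 0.481 (SD, n = 3). In each class the groups did not overlap, DKO being higher (exact permutation p = 0.1, adjusted 0.2 over 6 tests). With classes from WT replicate 1 alone, the low, border and other windows were 1.25, 2.97 and 2.09 points higher in DKO. Set against the same class outside the clusters, the changes differed by 0.341 points ± 0.330 for low windows, by -0.695 ± 0.99 for border windows and by 0.282 ± 0.416 for other windows (SE), with overlap in each, so a gain particular to the clusters as a whole was not shown. With classes from WT replicate 1 the value for low windows was -0.461 points, without overlap (exact permutation p = 0.1). WT replicate 1 then both sets the classes and is 1 of the samples compared. The low windows of the clusters were 1.19 points higher in DKO, and the mitochondrial calls 0.437 points over the same samples. After the mitochondrial correction the low windows were 0.784 points higher, without overlap (exact permutation p = 0.1).

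By cluster, the border windows had the widest range of differences. The 15 border windows of Hoxa were at 27.1, 22.0 and 28.6% in WT and at 34.4, 34.3 and 36.0% in DKO, a difference of 9.0 points ± 2.08 (SE). The 25 border windows of Hoxb differed by 3.50 points ± 0.727, also without overlap, and those outside the clusters by 3.63 points ± 0.157. In Hoxc and Hoxd the border windows differed by 1.05 points ± 1.52 and 0.669 points ± 1.22, and the groups overlapped. DKO values enter these classes too, so a window that leaves the low class through its gain adds that gain to another class. Part of the Hoxa border difference can arise in this way, and values by cluster from WT classes are not given here. These values by cluster are a description, and their differences from each other were not tested.

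Of the 404 windows, 7 were called higher in DKO and 0 lower, beside 0.49% called higher and 0.00723% called lower of all windows tested. Hoxa had 6 of the calls among 93 windows (6.45%), Hoxb 1 of 128, and Hoxc and Hoxd 0. At an unadjusted p under 0.05 of the quasi-binomial test, 45 of the 404 windows were higher and 13 lower, beside 7.32% and 1.95% of all windows. A limma-style test on log2 ratios put 22 and 6 at that level, beside 6.27% and 1.61%, and called 0 of the 404 and 0 of all windows. In 18 windows of Hoxa all DKO samples were above all WT samples (19.4%, beside 9.05% of all windows), and in 2 all were below (2.15%, beside 3.75%). The counts above were 14 of 128 in Hoxb, 6 of 89 in Hoxc and 8 of 94 in Hoxd, shares of 10.9, 6.74 and 8.51% near that background. Those below were 4, 2 and 6. The median difference of the windows was 1.04 points in Hoxa, 1.91 in Hoxb, 0.576 in Hoxc and 1.30 in Hoxd, beside 0.927 outside the clusters, so most windows of Hoxa did not share the large differences of the called ones.

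Of the windows with a mean level of 10 to 50% over all 6 samples, DKO included, 3.13% were called higher genome-wide. In 19.2% of them the DKO samples were all above the WT samples. In Hoxa 5 of 27 such windows were called and 8 had the DKO samples above. In Hoxb these counts were 1 and 3 of 36, in Hoxc 0 and 2 of 43, and in Hoxd 0 and 3 of 36, so the shares without overlap in Hoxb, Hoxc and Hoxd (8.33, 4.65 and 8.33%) were below the genome-wide share.

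The called windows of Hoxa lay between the starts of Hoxa5 and Hoxa10 or next to them, apart from 1 beyond Hoxa2. The window with the largest difference was chr6:52169001-52170000, just upstream of Hoxa7, a gene of the central cluster that is a known target of the MLL complex. It was at 27.3, 16.7 and 13.6% in WT and at 60.0, 62.6 and 64.9% in DKO, a difference of 43.4 points (adjusted p = 0.000777). The DKO samples lay close together and all far above the WT samples. In 3 of its 4 pieces of 250 bp the groups did not overlap, and the remaining piece had 1 CpG, although 1 of the 3 had as few as 2 reads in a sample. With each CpG that all samples had read weighted equally the difference was 39.1 points. It was the most stable of the calls, still called in 5 of 6 fits that left out 1 sample.

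The window upstream of Hoxa6, chr6:52159001-52160000, was at 28.7, 14.9 and 12.7% in WT and at 63.4, 59.7 and 48.7% in DKO (38.5 points, adjusted p = 0.00237). Its gain was clearest in the 250 bp from 52159251, where the WT samples had 14.3, 11.8 and 0% and the DKO samples 100, 47.1 and 50% over 3 CpGs, on 10 or more reads per sample. The equal-weight difference of the window was 39.4 points. The call held in 2 of 6 fits that left out a sample.

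The window over the Hoxa5 start, chr6:52154001-52155000, was at 61.2, 50.4 and 62.8% in WT and at 76.0, 82.2 and 87.4% in DKO (23.7 points, adjusted p = 0.00218). Hoxa5 codes for a factor known to act in myeloid and erythroid fate, and its start was the only placed Hox start above 50% in WT. In each 250 bp up to 52154750 the DKO samples were all above the WT samples, and the 250 bp beyond, farther upstream, was at 83.8% in WT and 77.7% in DKO with overlap. The equal-weight difference of the window was 16 points. The call held in 3 of 6 fits that left out a sample.

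The window that holds the start of Hoxa9, chr6:52177001-52178000, was almost unmethylated in WT, at 1.48, 2.22 and 4.00%, and at 23.6, 20.0 and 21.9% in DKO (19.3 points, adjusted p = 0.00451). Hoxa9 is the Hox gene most closely tied to stem cell expansion and to acute myeloid leukaemia. The 250 bp from 52177251 held 0 methylated reads in the 3 WT samples and were at 25, 50 and 33.3% in DKO over 5 CpGs, with as few as 6 reads in a sample. The equal-weight difference of the window was 23.8 points. The same window holds the start of Gm52902, a predicted RefSeq gene. The call held in 1 of 6 fits that left out a sample.

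The other 2 Hoxa calls had narrower support. The window chr6:52185001-52186000, just upstream of the first Hoxa10 start, was at 45.6, 35.0 and 21.3% in WT and at 49.6, 80.8 and 59.3% in DKO (29.3 points, adjusted p = 0.0398). Only its first 250 bp separated the groups, at 3.01% in WT and 11.7% in DKO, and with each CpG that all samples had read weighted equally the difference was 9.30 points. The window chr6:52111001-52112000, whose centre lies 3329 bp downstream of the Hoxa2 start, was at 32.9, 38.4 and 22.9% in WT and at 61.4, 63.9 and 54.0% in DKO (28.3 points, adjusted p = 0.0418), with the groups apart only in its first 250 bp and an equal-weight difference of 12.8 points. Neither was called in any fit that left out a sample. A further 2 Hoxa windows had an adjusted p under 0.05 of the quasi-binomial test but differed by less than 10 points: chr6:52163001-52164000 at the Hoxa3 start, with 0, 0.654 and 0% in WT and 5.28, 7.47 and 4.42% in DKO, and chr6:52183001-52184000 near the first Hoxa10 start, with 1.05, 0 and 2.01% in WT and 10.3, 7.03 and 6.91% in DKO.

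The 1 call in Hoxb, chr11:96181001-96182000, has its centre 1920 bp downstream of the Hoxb4 start. Hoxb4 is known for expanding blood stem cells when overexpressed. The window was at 0, 8.43 and 0% in WT and at 32.6, 9.28 and 28.3% in DKO (20.6 points, adjusted p = 0.0242). DKO replicate 2 lay within 1 point of WT replicate 2. With equal weights on the 4 CpGs that all samples had read, the groups differed by 0, and no fit that left out a sample called it.

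The number of calls rested on the samples and settings used. Leaving out WT replicate 1, 2 or 3 gave 3, 1 or 3 calls, and leaving out DKO replicate 1, 2 or 3 gave 2, 0 or 2. Calls fell over the whole genome too, from 0.49% of all windows called higher with all 6 samples. The share was 0.0751, 0.0824 and 0.0658% without WT replicate 1, 2 or 3, and 0.0524, 0.00374 and 0.1% without DKO replicate 1, 2 or 3. There were 4 calls when centred on the median shift between the groups over all windows, with those 4 in Hoxa, and 0 with 500 bp windows. Over the whole genome, centring left 1625 windows called higher (0.21%), and 0 of 439691 windows of 500 bp were called.

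Outside Hoxa the windows with the largest differences and no overlap went both ways, and none but the Hoxb window above passed the test. In Hoxb, chr11:96135001-96136000 was at 47.8, 67.3 and 59.1% in WT and at 85.7, 81.5 and 81.1% in DKO (adjusted p = 0.140 of the quasi-binomial test). The window chr11:96209001-96210000, 5207 bp from the start of Hoxb3os, was at 38.3, 29.8 and 42.9% in WT and at 61.8, 61.0 and 61.2% in DKO (adjusted p = 0.0629). They were 24.7 and 24.4 points higher, and 18.9 and 21.5 points with equal CpG weights.

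In Hoxc the largest was a lower value, at chr15:102849001-102850000, with 80, 75 and 70% in WT and 49.2, 52 and 56.8% in DKO (adjusted p = 0.158 of the quasi-binomial test). Its equal-weight difference was -11.8 points. The next were higher, by 16.2 points at chr15:102804001-102805000 and by 7.43 points at chr15:102752001-102753000 (26.1 and 4.76 points with equal weights). In Hoxd all 3 named windows were lower in DKO, by 18.6 points at chr2:74538001-74539000 near Hoxd9 (49.2, 34.3 and 38.8% in WT, 31.7, 14.3 and 20.6% in DKO, adjusted p = 0.122), by 14.9 points at chr2:74509001-74510000 and by 11.9 points at chr2:74564001-74565000. With each CpG that all samples had read weighted equally, these differed by only -1.82, -6.92 and -12.3 points.

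In 10 kb bins, which hold more reads each, 2 of 59 bins were called higher and 0 lower, beside 0.588% higher and 0.0156% lower of 199238 bins. At an unadjusted p under 0.05 of the quasi-binomial test, 8 were higher and 1 lower, beside 9.98% and 1.66% of all bins. Both called bins were next to each other in Hoxa. The bin chr6:52160001-52170000, with the starts of Hoxa3 and Hoxa7, was at 5.97, 4.30 and 5.03% in WT and at 14.4, 9.18 and 12.1% in DKO (adjusted p = 0.0319). The bin chr6:52170001-52180000, with the start of Hoxa9, was at 1.38, 0.706 and 0.614% in WT and at 2.35, 5.51 and 4.47% in DKO (adjusted p = 0.0364).

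The DKO samples were all higher in 9 of the 59 bins (15.3%, beside 12.6% of all bins), these 2 among them, and all lower in 2 (3.39%, beside 3.79%). In the 2 called bins the difference was 6.46 and 2.82 points after the same correction for each sample's mitochondrial share, against 6.77 and 3.21 points before. The neighbouring bin with the starts of Hoxa5 and Hoxa6 went from 68.0 to 80.8% without passing the test (adjusted p = 0.107). Each called bin held its call in 1 of 6 fits that left out a sample, and neither passed after centring on the median shift. Without WT replicates 1, 2 or 3 or DKO replicate 3 the count of called bins was 0, and without DKO replicate 1 or 2 it was 1. These fits called 0.0437 to 0.299% of all bins higher, beside 0.588% with all 6 samples.

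The path of the change along Hoxa was read from the stretches between placed starts, which were chosen after values were seen and are given without a test. From Hoxa5 to Hoxa6 the 3 windows went from 64.8 to 72.4%, with overlap. From Hoxa6 to Hoxa3 the level went from 12.5 to 28.1%, from Hoxa3 to Hoxa7 from 4.23 to 10.9%, from Hoxa7 to Hoxa9 from 3.64 to 12.7%, and from Hoxa9 to the first Hoxa10 start from 0.849 to 6.31%. The 6 windows between the 2 Hoxa10 starts went from 49.5 to 58.6%. In each of the 5 stretches from Hoxa6 on the groups stood apart, with all DKO samples higher.

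On the 5′ side of the second Hoxa10 start the groups overlapped. From there to Hoxa11 the difference was -0.491 points, from Hoxa11 to Hoxa13 it was -0.791 points and beyond Hoxa13 it was 0.845 points. Hoxa11 and Hoxa13 act in limb, kidney and genital development and are not typical of blood cells. From Hoxa2 to Hoxa5 the 23 windows were at 80.5% in WT and 81.7% in DKO, with overlap. The 13 windows between the interval's edge and Hoxa2 were higher in every DKO sample, by 3.85 points. In the other clusters the stretches without overlap were that before Hoxb8 (2.10 points higher), that beyond Hoxb1 (5.25 points), that from Hoxd12 to Hoxd11 (5.56 points) and that from Hoxd8 to Hoxd3 (4.52 points).

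Low windows were read over the same stretches. Between Hoxa6 and the first Hoxa10 start the 16 low windows were at 1.11, 0.416 and 0.385% in WT, all below those samples' mitochondrial calls, and at 3.19, 4.97 and 3.12% in DKO, all above theirs. The mitochondrial share can therefore overstate failed conversion in nuclear DNA, and the correction for it can be too large. In 15 of the 16 the difference was above 0. The 3 low windows before Hoxa6 were at 5.71% in WT and 4.67% in DKO, and in 0 of them was the difference above 0. The 15 low windows beyond that start were at 4.86, 4.83 and 4.54% in WT and at 5.67, 5.71 and 5.96% in DKO. In WT the low windows of Hoxb, Hoxc and Hoxd were at 4.06, 5.41 and 4.91% on average.

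**Figure D3:**
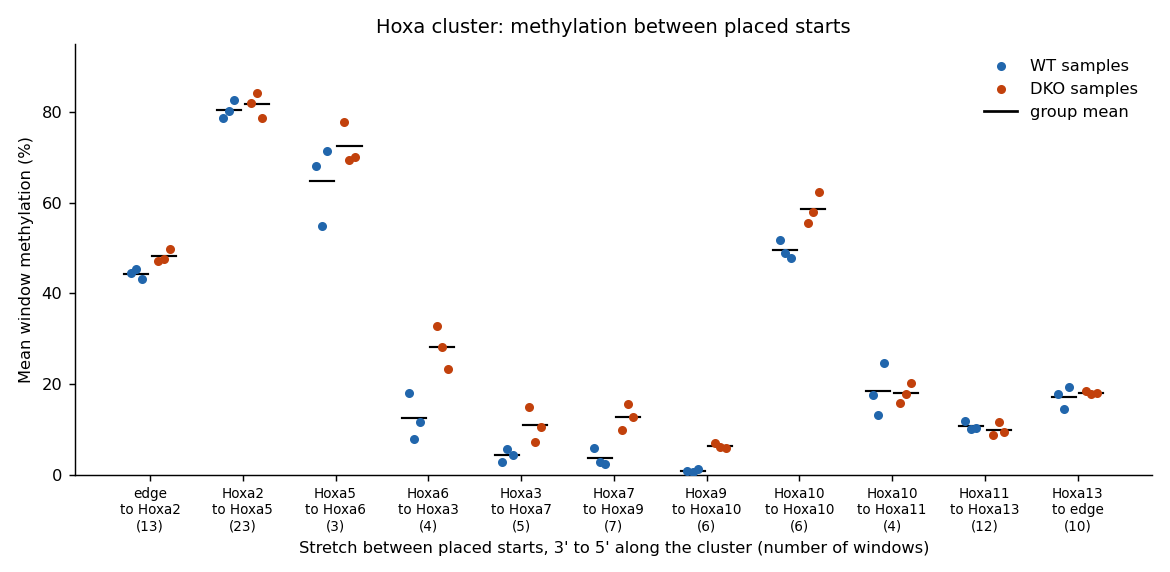
Mean methylation of the tested windows between neighbouring placed starts of Hoxa, from the 3′ to the 5′ end, with 1 point per sample and a line at each group mean. DKO points lie above WT points in the 5 stretches from Hoxa6 to the second Hoxa10 start, and overlap them in the 3 stretches beyond.

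Start sites were then measured over the 1 kb centred on each. RefSeq promoter sequences were at hand for 22 of the 38 Hox genes, and 20 of these genes had a start placed with at least 5 matching CpGs, giving 21 starts. Hoxa4, Hoxb2, Hoxb3, Hoxb5, Hoxb6, Hoxb7, Hoxb9, Hoxb13, Hoxc5, Hoxc6, Hoxc8, Hoxc9, Hoxc10, Hoxc11, Hoxc12 and Hoxc13 had no entry, so Hoxc is represented by Hoxc4 alone. Of the 21 starts 15 were below 10% over all samples. None was called, as none was of 18578 placed starts (0% higher and 0% lower) by the quasi-binomial test. The limma-style test on log2 ratios called 0 as well, and at an unadjusted p under 0.05 of the quasi-binomial test 5 were higher and 1 lower, beside 7.94% and 2.16% of all placed starts. Dispersion was moderated far less for starts than for windows (prior degrees of freedom 1.18 against 23.7), so 0 calls do not show unchanged starts. The 1 kb around Gm52902, almost the called Hoxa9 window, had an adjusted p = 0.468 in the quasi-binomial test over starts. That window had 0.00451 in the test over windows.

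The DKO samples were all higher than the WT samples at 5 of the 21 starts, beside 10.4% of all placed starts, and all lower at 1, beside 2%. Hoxa5 was at 61.0, 54.6 and 63.9% in WT and at 75.1, 83.0 and 88.6% in DKO (22.4 points, adjusted p = 0.468 of the quasi-binomial test). Hoxa7 was at 8.70, 21.6 and 3.77% in WT and at 44.4, 22.2 and 33.6% in DKO (22.1 points, adjusted p = 0.494), with WT replicate 2 and DKO replicate 2 almost equal. Their order turned with the CpGs used, at 21.9 points for Hoxa5 and 24.0 for Hoxa7 over the printed bases and at 15 and 28.3 points with equal CpG weights over the 1 kb. Hoxa3, whose start was placed between those of Hoxa6 and Hoxa7, was at 0% in all WT samples and at 0.360, 4.36 and 4.18% in DKO.

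The other starts that were higher without overlap were in Hoxd. Hoxd11 went from 1.15% ± 0.511 to 4.4% ± 1.24 and Hoxd12 from 7.10% ± 1.15 to 10.6% ± 2.01 (SD, n = 3). Both genes act in limb patterning. Hoxa2, a hindbrain and neural crest gene, was lower, at 9.81, 21.5 and 21.8% in WT and at 7.06, 9.77 and 6.38% in DKO, where WT replicate 1 and DKO replicate 2 differed by under 0.1 points.

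Starts with little or unclear difference made up the rest. Hoxa6 went from 18.9% ± 6.64 to 29.9% ± 8.60 with overlap (SD, n = 3). Hoxa10 had its first start at 6.69% in WT and 12% in DKO and its second at 7.61 and 6.91%. Hoxa11 and Hoxa13 were at 3.52 and 1.56% in WT and at 5.02 and 5.14% in DKO, with DKO replicate 1 at 12.5% at Hoxa13 and DKO replicates 2 and 3 at 0.405 and 2.52%. Hoxb4 was at 18.8, 16.6 and 25% in WT and at 7.44, 40.2 and 25.9% in DKO, the widest spread of any DKO group here. Hoxb8, known for holding myeloid progenitors undifferentiated, was at 15.7% in WT and 14.9% in DKO, and Hoxb1 at 5.73 and 9.71%. Hoxc4 was at 5.84 and 4.36%. In Hoxd, Hoxd13 was at 7.74 and 4.58%, Hoxd10 at 11.1 and 8.77%, Hoxd9 at 3.43 and 4.68%, Hoxd8 at 6.09 and 4.36%, Hoxd3 at 3.13 and 2.27% and Hoxd1 at 1.32 and 2.92%, all with overlap.

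Sequences with 3 or 4 CpGs were placed only inside their own cluster, after the data were seen, which added 3 starts. Hoxa9 was at 1.27, 1.53 and 3.00% in WT and at 15.7, 11.4 and 14.3% in DKO (11.9 points, adjusted p = 0.467 of the quasi-binomial test). Hoxd4 was at 20.8, 24.5 and 27.6% in WT and at 39.2, 29.4 and 55.8% in DKO, also without overlap (adjusted p = 0.501). The further Hoxd11 start was at 2.54% in WT and 2.63% in DKO.

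Starts of RNAs that do not code for Hox proteins were also placed within the intervals. Hottip, the long non-coding RNA at the 5′ end of Hoxa, was at 7.14, 3.95 and 4.38% in WT and at 4.92, 6.73 and 4.22% in DKO. Hoxa11os, transcribed opposite to Hoxa11, was at 1.42, 2.56 and 2.35% in WT and at 5.17, 2.41 and 1.28% in DKO, and Hoxb3os at 2.47, 4.80 and 6.95% and at 4.73, 5.20 and 0.389%. These 3 starts were low in all samples, with overlap. The predicted gene Gm51876 in Hoxb was at 22.9, 25.4 and 30.0% in WT and at 54.6, 28.3 and 40.6% in DKO, overlapping through DKO replicate 2. Gm52902, which shares the called window of Hoxa9, was the 1 of these starts where the groups stood apart, by 19.3 points (adjusted p = 0.468 of the quasi-binomial test over starts).

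**Figure D4:**
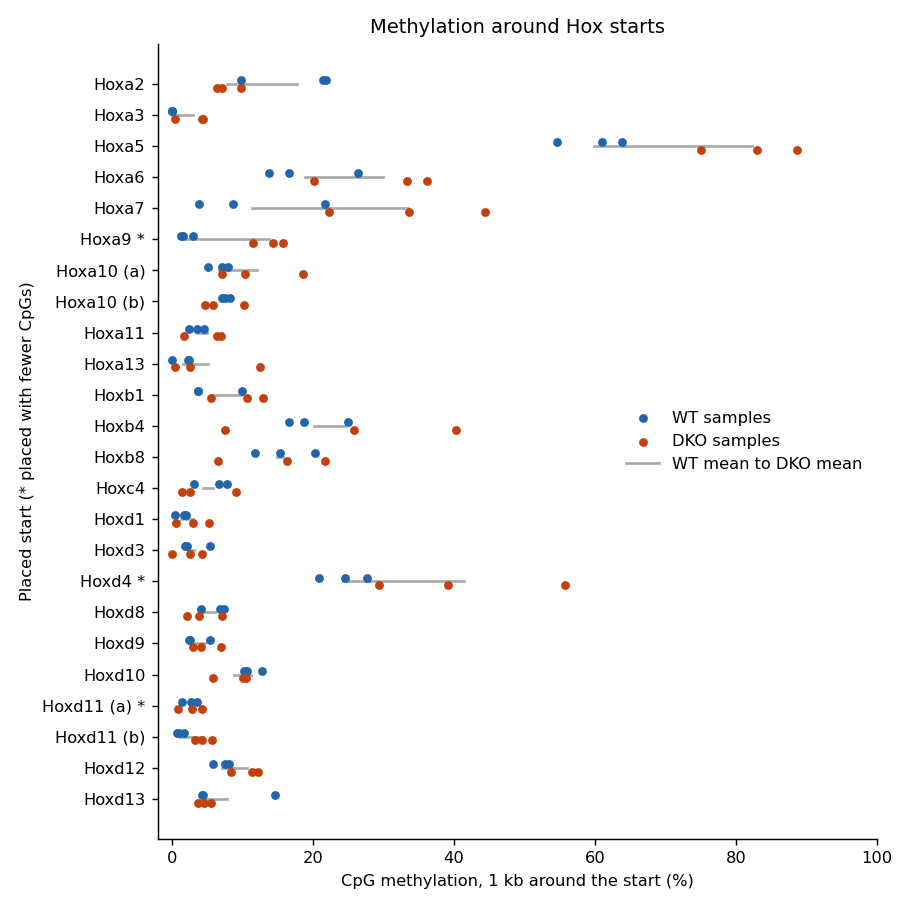
CpG methylation in the 1 kb centred on each placed Hox start, with 1 point per sample (WT blue, DKO orange) and a grey line from the WT mean to the DKO mean; (a) and (b) are 2 starts of 1 gene in order of position. Hoxa5 is the most methylated start and most others lie below 10%.

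Of 9 genes for TALE cofactors, which bind DNA together with Hox proteins, 5 were tested and 0 called, with all starts below 10% and a median difference of 0.269 points. Meis1, the partner of Hoxa9 in leukaemia, was at 0% in WT and 0.269% in DKO. Of 18 genes for Trithorax and Polycomb regulators and related factors, 13 were tested at 16 starts and 0 called, with a median difference of 0.180 points, and the largest was that of Ezh1, with 5.04% ± 1.61 (WT) and 12.6% ± 10.2 (DKO; SD, n = 3). Of 9 cluster neighbours and ParaHox genes, 7 were tested and 0 called, with a median difference of 1.32 points, and only Gsx1, at 2.47% in WT and 4.88% in DKO, was higher in every DKO sample. The medians stood beside 1.59 points for the Hox starts and 0.418 points for all placed starts.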

How the data were processed

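Bisulfite sequencing of whole genomes covered 3 WT and 3 DKO samples. The authors deposited 1 table that gives, per CpG and sample, a count of methylated reads and a total read count, without normalisation or pooling. The submitters' processing notes name BSMAP 2.74 and the build mm9; the sources used here do not give filters, duplicate removal or trimming. There were 0 CpGs listed more than once, 0 values with more methylated than total reads and 0 columns of other samples. Positions are from 1, on mm9.

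Reads were summed over CpGs in 1 kb windows (3 or more CpGs, and 20 or more reads per sample), 10 kb bins (10 CpGs and 100 reads, no minimum difference) and 1 kb around starts, so a read counts once for each CpG it covers. A quasi-binomial logistic regression on group was fitted to each feature, in numpy 2.4.6 and scipy 1.17.1, with the dispersion moderated over all autosomal features as in limma's squeezeVar (floor 1; prior degrees of freedom 23.7 for windows, 9.17 for bins and 1.18 for starts). A large prior lets the samples of a called window differ widely. P-values were adjusted by Benjamini-Hochberg. Limma 3.58.1 served to check the moderation, and the model was tested on simulated data. The limma-style test on log2 ratios was computed in numpy with the same kind of moderation, not with the limma package. A p-value of the quasi-binomial regression rests on a dispersion that combines a feature's own spread between samples with that of all autosomal features. For windows, with prior degrees of freedom of 23.7, the shared part outweighs the spread between a window's own samples. Numbers of reads bear on counting error only.

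No start positions on mm9 were given, so the CpG spacing of each RefSeq promoter was matched to the listed CpGs of its chromosome (at least 80% matched both ways, 1 place only). This placed 19871 of 20355 sequences with at least 5 CpGs.

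No 2 replicates agreed within the noise of independent counts in read calls per 1 Mb bin (chi-square per degree of freedom 11.8 to 117, the highest with DKO replicate 2). Calls from the same read are not independent, so these values do not measure differences between replicates alone. Named windows were all calls and, per cluster, the 3 largest differences without overlap; named starts were the 3 largest differences and 2 highest levels per cluster. The members, lists and tests were chosen with earlier results of these data known.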

Additional observations from a re-analysis of the deposited data

How the results depend on the processing

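The count of called windows, 7 as reported, was 0 with the limma-style test on log2 ratios, which also called 0 of all windows. It was 32 with Fisher's exact test on pooled reads (21 higher and 11 lower). That test ignores the spread between samples and called 5.56% of all windows higher and 0.908% lower. The count was 4 after centring on the median shift (0.21% of all windows called higher) and 0 with 500 bp windows (0 of all). With minimums of 10 and 40 reads it was 1 and 2 (0.0221% and 0.112% of all windows higher). With 1 sample left out it was 0 to 3 (0.00374% to 0.1%). The count of called bins, 2 as reported, was 0 with a minimum difference of 10 points (0.46% of all bins higher) and 0 with the limma-style test (0 of all bins). It was 18 with Fisher's test (14 higher and 4 lower, beside 17.1% and 4.54% of all bins). After centring it was 0 (0.106% of all bins higher), and with a minimum of 200 reads 0 (0.339%). With 1 sample left out it was 0 to 1 (0.0437% to 0.299%). The count of called starts, 0 as reported, was 3 with Fisher's test, all higher, beside 4.97% of all placed starts called higher. With 1 sample left out it stayed at 0, as did the count over all placed starts.

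Fitting the replicate number as a block gave 0 windows (0 of all windows), 3 bins (0.748% of all bins called higher) and 0 starts (0 of all placed starts). Deviations of same-numbered samples correlated by 0.00332 to 0.00359 over all windows, and those of differently numbered samples by -0.00204 to -0.00136. In the windows of the clusters these ranges were 0.00515 to 0.0709 and -0.0856 to 0.0413. The correlations over all windows were close to 0, and whether the numbers pair the samples was not tested.

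The cluster differences kept their direction when 1 sample was left out (Hoxa 3.13 to 4.07 points, Hoxb 1.57 to 2.54, Hoxc 0.420 to 0.996, Hoxd 0.765 to 1.13), as did the contrast of active with silent clusters (1.61 to 2.30), which was 0.832 with summed reads. Values near 0 changed sign. With a minimum of 40 reads, Hoxc was at -0.111 points, the difference of the Hoxa sides at -0.667, that of the Hoxd sides at 0.383, the border windows against the rest at 0.670 and the other windows against the rest at -0.550. The 3′ side of Hoxc was at 0.265 with a minimum of 10 reads and at 0.578 with equal CpG weights. The difference of the Hoxa sides was -1.20 with 500 bp windows, -2.48 when split at the group 9 gene, -0.284 with equal CpG weights and -3.10 with summed reads. That of the Hoxd sides was 0.282 when split there and 0.466 with equal weights, and that of the Hoxb sides 0.243 with equal weights and 0.519 with summed reads. The low windows against the rest were at -0.461 when classed from WT replicate 1, with the groups apart (exact permutation p = 0.1). Leaving out 1 sample gave -0.420 to 1.16 for the Hoxa sides, -0.806 to 0.483 for the Hoxb sides, -0.891 to 0.619 for the Hoxd sides, -1.09 to 0.625 for the 3′ side of Hoxc and -0.109 to 0.564 for the other windows against the rest. At starts it gave -4.29 to 3.29 for Hoxb8, -3.46 to 12.9 for Hoxb4 (-2.66 with equal weights) and -4.88 to 0.242 for Hoxd13. The cause was not tested. Depth limits single windows, since 20 reads in a sample can come from a few molecules.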
